A study of Drosophila melanogaster with 15 samples.

Results

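The stress-inducible heat shock genes of the cytosol were followed in the larval central nervous system of Drosophila melanogaster after knockdown of 4 subunits of oxidative phosphorylation. The question put to the data was whether the rise of Hsc70-2, a member of the Hsp70 chaperone family, came with a rise of the classical heat shock genes. The 10 genes taken were Hsf, Hsp23, Hsp26, Hsp27, Hsp67Ba, Hsp67Bb, Hsp67Bc, Hsp68, Hsp83 and l(2)efl. They were found by symbol, or by an older symbol, in the platform annotation of the array, which lists 12549 genes in all.

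Of the 10 genes, 5 had at least 1 probe set listed for that gene alone: Hsf, Hsp26, Hsp27, Hsp68 and l(2)efl. Hsp67Bb, whose RefSeq symbol is CG4456, was listed on 2 probe sets only, both of which it shares with its neighbour Hsp22. The signals of these 2 probe sets therefore belong to neither gene alone and are given under the probe set names. Hsp23, Hsp67Ba, Hsp67Bc and Hsp83 were not listed in the annotation used here and have no values. Altogether 9 probe sets belonged to these genes, and 8 of them passed the filter on dim signals. The dim one was 1 of 3 probe sets of l(2)efl. All 5 genes with a probe set of their own could be tested.

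The samples were whole central nervous systems of wandering larvae in the third instar, grown at 25 degrees, 15 larvae for each sample, with 3 samples for each of 5 genotypes. Control larvae carried the neuronal driver nsybGal4 alone (nsybGal4/+). The other groups carried the same driver with 1 RNAi line each: ND-75 RNAi (complex I, line 33910), UQCR-14 RNAi (complex III, line 109542), COX5B RNAi (complex IV, line 105769) or ATPsynCf6 RNAi (complex V, line 107826). The driver acts in neurons, whereas the tissue also holds glia and neural stem cells. There was 1 line for each target and no group with an unrelated RNAi construct, so effects of a line and of its target cannot be told apart. Labelled cDNA was made from 10 ng of RNA and hybridised to 1 Affymetrix array a sample. In such bulk samples a lower signal from fewer cells cannot be told apart from less RNA in each cell.

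The arrays differed in quality. The upper quartile of signals was 566 to 653 on 10 arrays and 170 to 485 on the other 5. Those 5 were the arrays numbered 3 of every group but ATPsynCf6 RNAi, together with COX5B RNAi 1. The ratio of 3' to 5' actin control signals, which rises as RNA is degraded, was 70.1 on COX5B RNAi 1, 37.4 on ND-75 RNAi 2, 20.1 on ND-75 RNAi 3 and 2.94 to 5.03 on the other arrays. None of the 4 targeted transcripts passed the test in its own group. UQCR-14 gave 7835, 6321 and 30487 there (control 7959, 6616 and 20967), and ATPsynCf6 gave 3585, 2828 and 3285 (control 3108, 3003 and 3579). ND-75 gave 305, 195 and 194 (control 335, 387 and 304), and COX5B gave 989, 1958 and 7716 (control 2725, 2952 and 8404). Each overlapped control, so the word knockdown names the genotype here and not a measured fall. Of 7 markers of neurons, glia and neural stem cells with a probe set, 6 or 7 exceeded the median of every array. On the 10 arrays their median log2 change against control was -0.28, -0.38, -0.51 and -0.20 in ND-75, UQCR-14, COX5B and ATPsynCf6 RNAi. Over all probe sets tested it was -0.03, -0.03, 0.02 and -0.01. For 4 blood cell markers it was -1.24, -0.71, -1.44 and -0.28. In UQCR-14 RNAi 1 of the 7 fell (4.59% of all called), and in ND-75 RNAi 1 of the 4 (1.69%). The part of these markers was not tested. The summed signal of 7 salivary gland markers ran from 881 to 17691 over the arrays. Because of these differences, results are given from all 15 arrays, from the 10 arrays of high upper quartile, and from all arrays weighted by their quality. COX5B RNAi keeps 1 of its 3 arrays among the 10, and that array is then assumed to vary as the arrays of the other groups do.

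Heat shock genes are switched on by the transcription factor HSF, which binds heat shock elements in their promoters when unfolded proteins occupy the chaperones that otherwise hold it inactive. The products keep damaged proteins soluble (the small heat shock proteins) or refold them with the help of ATP (the Hsp70 and Hsp90 families and their co-chaperones). In Drosophila most small heat shock genes lie side by side at cytological position 67B of chromosome arm 3L, and several of them are also under control of ecdysone in late larvae. In RefSeq (assembly Release 6 plus ISO1 MT) the order there is Hsp67Bc, CG4456, Hsp22, CG4461, Hsp26, Hsp67Ba, an antisense RNA, Hsp23 and Hsp27. Hsp22 is a small heat shock protein of the mitochondrial matrix. CG4456 encodes a rhodanese-like protein.

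Across the 15 arrays none of the 5 testable genes passed the test in any RNAi group. In 1 limma fit with Benjamini-Hochberg adjustment over 10340 probe sets, 0 of 5 passed an adjusted p of 0.05 against control in ND-75 RNAi, where 0.0677% of all probe sets did. The count was 0 of 5 for ATPsynCf6 RNAi (0.0193% of all), 0 of 5 for COX5B RNAi (0% of all) and 0 of 5 for UQCR-14 RNAi (0.0484% of all). Averaging the knockdowns and comparing them with control gave 0 of 5 as well, beside 0.0484% of all probe sets. At an unadjusted p under 0.05 the count was also 0 of 5 in each of the 4 comparisons with control. Most sets of 5 unchanged genes would give 0 as well, so this count adds little. The median log2 change of the 5 genes was 0.17 in ND-75 RNAi, where that of all probe sets tested was 0.00. It was -0.01 in ATPsynCf6 RNAi (0.07 over all), 0.04 in UQCR-14 RNAi (-0.07 over all) and -0.23 in COX5B RNAi (-0.32 over all).

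**Figure D1:**
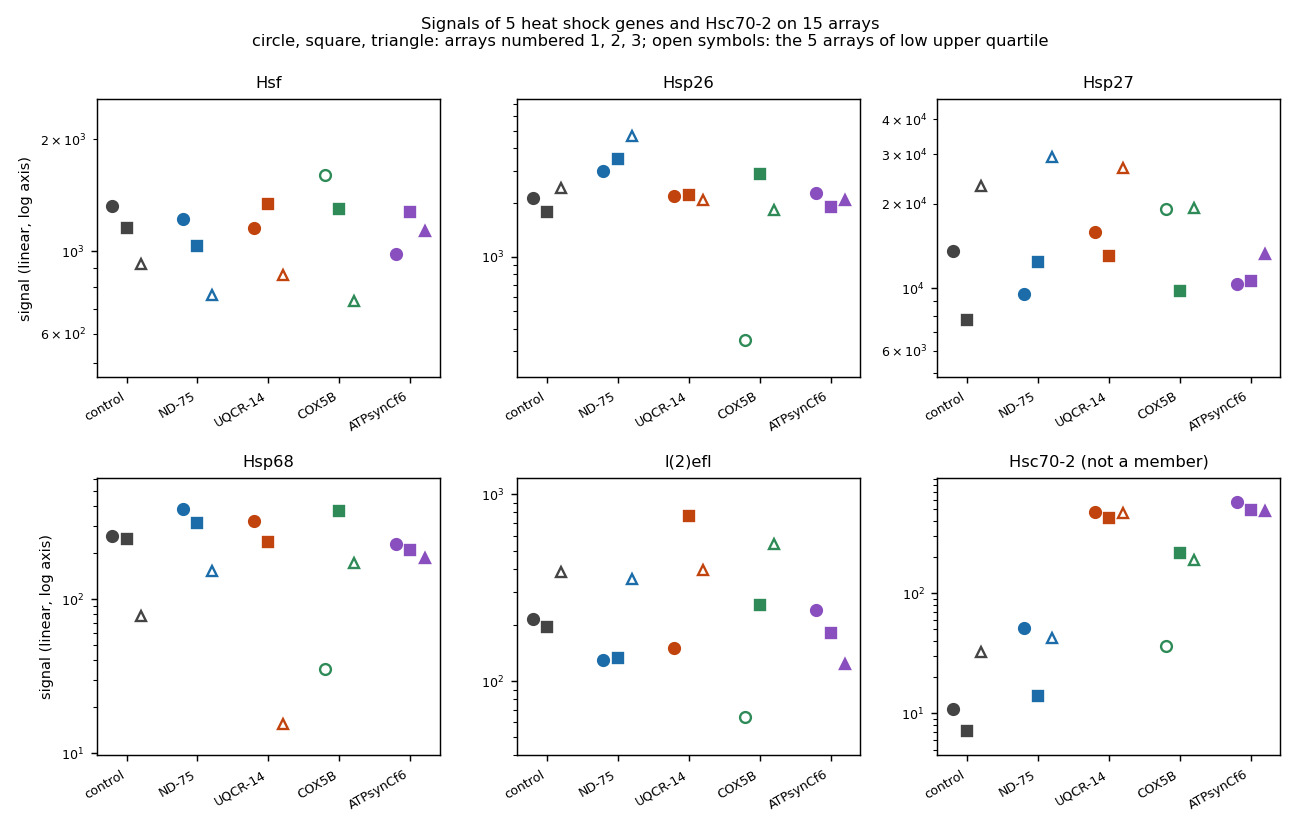
Signal on each array (log axis) of Hsf, Hsp26, Hsp27, Hsp68, l(2)efl and, for comparison, Hsc70-2, by group. Circles, squares and triangles are the arrays numbered 1, 2 and 3, and open symbols are the 5 arrays of low upper quartile. Hsp26 lies above control on all 3 ND-75 RNAi arrays, and Hsc70-2 lies above control on all arrays of the other 3 RNAi groups.

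Hsf (1626844_at), the gene of the heat shock transcription factor, had signals of 1319.6, 1154 and 925 on control arrays 1 to 3. They were 1218, 1034 and 763 in ND-75 RNAi and 1150.1, 1336 and 863 in UQCR-14 RNAi. They were 1598, 1300.1 and 734 in COX5B RNAi and 981, 1273 and 1135 in ATPsynCf6 RNAi. Every group overlapped control, and in the first 4 groups named the array numbered 3 was the lowest. The log2 changes were -0.18, -0.03, 0.04 and 0.00 in the order ND-75, UQCR-14, COX5B and ATPsynCf6 RNAi, each with a standard error of 0.42. The standard error fell to between 0.14 and 0.18 on the 10 arrays, where the changes were -0.14, 0.01, 0.07 and -0.13. HSF is activated mainly by modification and trimer formation of existing protein, which an array does not measure.

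Hsp26 (1635044_at), a small heat shock protein of the 67B cluster, gave 2129, 1772 and 2409.8 in control. In ND-75 RNAi it gave 2983, 3493 and 4668, so that every ND-75 RNAi array exceeded every control array. All 3 arrays exceeded all 3 control arrays at 3.54% of the probe sets in this group. The signals were 2187, 2216 and 2057 in UQCR-14 RNAi and 2269, 1891 and 2079 in ATPsynCf6 RNAi, all within the control range. In COX5B RNAi they were 346, 2873 and 1811, spread from far below to above control, with the lowest on the array of the highest actin ratio. The change in ND-75 RNAi was 0.80 (SE 0.59, adjusted p = 1.00) on all arrays.

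Hsp26 was the only one of the 5 genes that passed the test against control on the 10 arrays, and it did so in ND-75 RNAi alone. There it rose by 0.73 on the log2 scale (SE 0.14, adjusted p = 0.0214), where 1.69% of all probe sets were called. Without control 2 or without ND-75 RNAi 2, the array whose actin ratio was 37.4, this call was lost (adjusted p = 0.226 and 0.0926). With array weights the change was 0.68 (SE 0.17, adjusted p = 0.0519), where 1.57% of all probe sets were called. ND-75 RNAi 1, whose actin ratio of 3.79 was in the control range, also exceeded all control arrays. The part of RNA quality in the higher signals of the other 2 arrays was not tested.

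The rise of Hsp26 was also set against the other knockdowns. Hsp26 was, on the 10 arrays, higher in ND-75 than in ATPsynCf6 RNAi by 0.63 (adjusted p = 0.0145, 4.52% of all probe sets called), and with array weights by 0.63 (adjusted p = 0.037, 3.05% of all called). The call on the 10 arrays held in 6 of the 9 fits that left out 1 further array, and was lost without ND-75 RNAi 2, ATPsynCf6 RNAi 2 or ATPsynCf6 RNAi 3 (adjusted p up to 0.103). A moderated F test of equal means in the 4 RNAi groups gave an adjusted p of 0.0337 for Hsp26 on the 10 arrays, with 4.4% of all probe sets called. On all 15 arrays this F test gave 0.893, and it called none of the 5 genes and 0.106% of all probe sets. Hsp26 in COX5B RNAi changed by -0.76 (SE 0.59) on 15 arrays and by 0.56 (SE 0.17, adjusted p = 0.148, 1.24% of all called) on the 10 arrays, which leave out COX5B RNAi 1.

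Hsp27 (1628117_at), a small heat shock protein found in the nucleus of Drosophila cells, had signals of 13619.8, 7728 and 23157 in control. They were 9535, 12397 and 29459.6 in ND-75 RNAi and 15915, 13069 and 26932 in UQCR-14 RNAi. They were 19182, 9751 and 19311 in COX5B RNAi and 10398, 10649 and 13211 in ATPsynCf6 RNAi. All groups overlapped control, and the arrays numbered 3 were the highest of their group in every group. The changes were 0.17, 0.40, 0.19 and -0.25 (SE 0.52 each) in the same order. They were, on the 10 arrays, 0.08, 0.49, -0.07 and 0.15, with UQCR-14 RNAi nearest to the threshold (SE 0.26, adjusted p = 0.307, 4.59% of all called).

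l(2)efl, a relative of the alpha-crystallin family of small heat shock proteins, was measured by 1627242_at with signals of 214, 195 and 383 in control. They were 129.6, 133 and 350.0 in ND-75 RNAi and 151, 769 and 395 in UQCR-14 RNAi. They were 63.9, 255 and 542 in COX5B RNAi and 239, 181 and 124 in ATPsynCf6 RNAi. Every group overlapped control, and the spread was widest in UQCR-14 and COX5B RNAi, where the lowest array lay below all control arrays and the highest above them. The changes were -0.43, 0.49, -0.23 and -0.49 (SE 0.69 each). The second probe set of the gene, 1626416_a_at, changed by -0.59, -0.98, -0.07 and -0.38 (SE 0.67 each), so the probe sets differed in sign in UQCR-14 RNAi, and neither passed the test. Its control signals were 40.6, 52.5 and 93.1.

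Hsp68 (1638872_at), a stress-inducible member of the Hsp70 family, gave 258, 244 and 77.4 in control. It gave 384, 309.9 and 151 in ND-75 RNAi and 319, 236 and 15.4 in UQCR-14 RNAi. It gave 35.4, 373 and 171 in COX5B RNAi and 226, 208 and 185 in ATPsynCf6 RNAi. The groups overlapped, and in every group but ATPsynCf6 RNAi the lowest array was one of low upper quartile. The changes were 0.57, -0.44, -0.28 and 0.24 (SE 0.83 each). With the 10 arrays they were 0.44, 0.12, 0.54 and -0.27, and none of these passed the test (adjusted p = 0.342, 0.773, 0.373 and 0.553). Between ND-75 and ATPsynCf6 RNAi, Hsp68 differed by 0.70 on the 10 arrays (adjusted p = 0.0458). That call held in 1 of the 9 fits that left out 1 further array, the one without UQCR-14 RNAi 2 (adjusted p = 0.0493 to 0.134).

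Over the 6 pairs of RNAi groups, no pair called any of the 5 genes on all 15 arrays. The share of all probe sets called there was 0.0677% for ND-75 against UQCR-14, 0.0484% for ND-75 against COX5B and 0.0484% for ND-75 against ATPsynCf6 RNAi. It was 0.029% for UQCR-14 against COX5B, 0.029% for UQCR-14 against ATPsynCf6 and 0.00967% for COX5B against ATPsynCf6 RNAi.

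**Figure D2:**
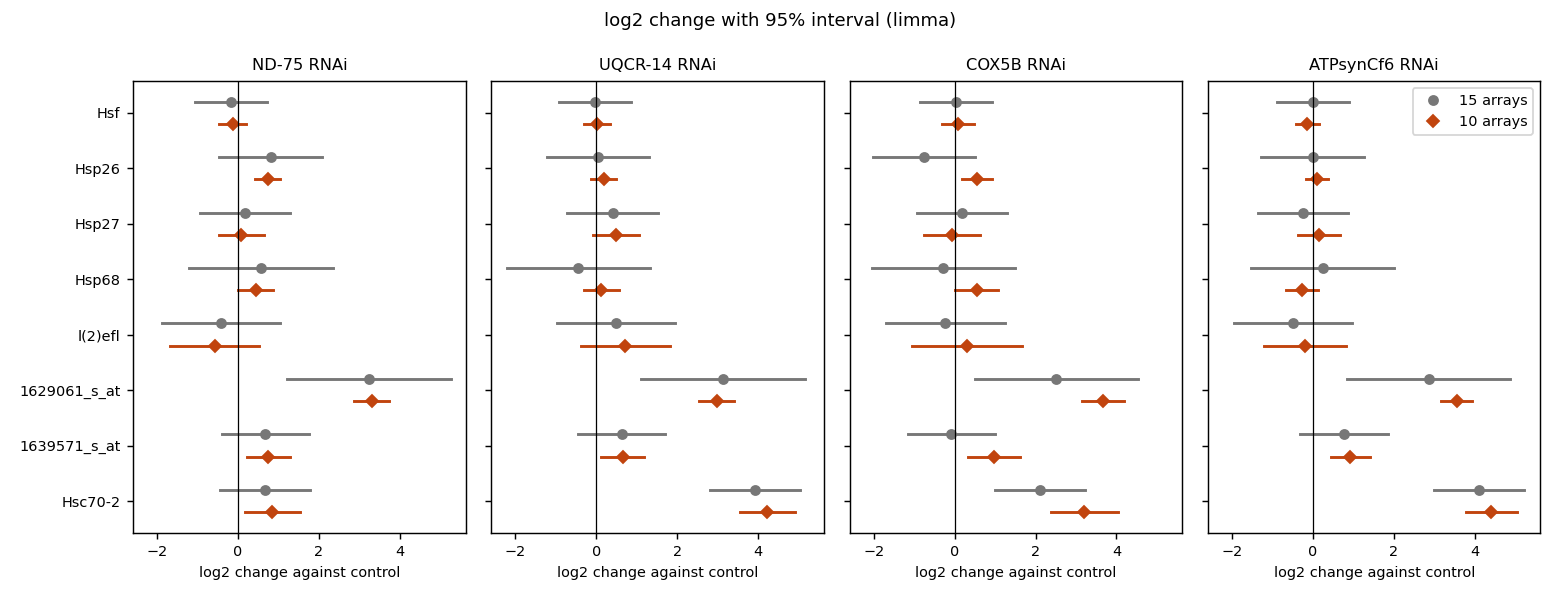
The log2 change against control with its 95% interval for the 5 genes, for 2 probe sets shared between heat shock genes and for Hsc70-2, in each RNAi group. Grey circles are from all 15 arrays and red diamonds from the 10 arrays of high upper quartile. The intervals of the 5 genes lie mostly across 0, whereas 1629061_s_at lies near 3 in all 4 groups and Hsc70-2 lies near 4 in UQCR-14 and ATPsynCf6 RNAi.

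Hsc70-2 (1636055_at) had signals of 10.9, 7.14 and 32.3 in control, below the median signal of each array. They were 479, 424 and 467 in UQCR-14 RNAi and 575, 493 and 484 in ATPsynCf6 RNAi. They were 36.2, 215 and 188 in COX5B RNAi and 51.5, 13.9 and 42.4 in ND-75 RNAi. UQCR-14, COX5B and ATPsynCf6 RNAi did not overlap control, and ND-75 RNAi did. The same non-overlap above control was seen at 3.37%, 2.99% and 8.95% of all probe sets in UQCR-14, COX5B and ATPsynCf6 RNAi. The summed signal of 4 fat body markers was 5677 to 7134 in control. The sum ran from 8390 to 9970 in UQCR-14 RNAi and 6661 to 7962 in ND-75 RNAi. It ran from 5910 to 12173 in COX5B RNAi and 6998 to 11912 in ATPsynCf6 RNAi. On control 1 apolpp alone gave 6587 of 7134, and the other markers varied more over the control arrays. Fbp1, Fbp2 and Lsp2 were at 165, 145 and 238 on control 1. On control 3 they were at 880, 1788 and 1429, while apolpp was lower (2916). Lsp2 was at 3812, 721 and 366 in ATPsynCf6 RNAi and 646, 561 and 2119 in UQCR-14 RNAi. It was at 304, 210 and 671 in ND-75 RNAi and 175, 332 and 494 in COX5B RNAi. The part of these markers in the result was not tested. The 7 salivary gland markers summed to 10634, 3529 and 17691 on UQCR-14 RNAi 1, 2 and 3. In control they summed to 881, 1850 and 12713, so the groups overlapped through control 3. Their part was not tested either. On 15 arrays the test was passed in UQCR-14 RNAi (change 3.92, SE 0.52, adjusted p = 0.00602) and in ATPsynCf6 RNAi (4.09, SE 0.52, adjusted p = 0.00537).

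The calls of Hsc70-2 depended on single arrays. In UQCR-14 RNAi the call held in 12 of 15 fits that left out 1 array and was lost without control 1, control 2 or UQCR-14 RNAi 1 (adjusted p up to 0.0780). In ATPsynCf6 RNAi it held in 11 of 15 and was lost without control 1, control 2, ATPsynCf6 RNAi 1 or ATPsynCf6 RNAi 3 (adjusted p up to 0.0723). With the replicate number as a block on the 12 arrays without ATPsynCf6 RNAi, the change in UQCR-14 RNAi kept its size of 3.92 (SE 0.54) and missed the threshold (adjusted p = 0.0660). In COX5B RNAi the change was 2.12 on 15 arrays (adjusted p = 0.541), and it passed on the 10 arrays (3.21, adjusted p = 0.00147) and with array weights (3.08, adjusted p = 0.000724). Because the control signals are dim, the size depends on the constant added before the logarithm. With 64 or 1 added in place of 16, the change was 2.70 or 4.95 in UQCR-14 RNAi and 2.86 or 5.13 in ATPsynCf6 RNAi.

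Beside these changes the 5 genes gave intervals that ended lower in UQCR-14 and ATPsynCf6 RNAi. In UQCR-14 RNAi the highest upper end of a 95% interval among them was 1.95, for l(2)efl, and the lower end for Hsc70-2 was 2.81. In ATPsynCf6 RNAi the highest upper end was 2.01, for Hsp68, and the lower end for Hsc70-2 was 2.98. The highest upper ends on the 10 arrays were 1.82 and 0.81, both for l(2)efl, against lower ends of 3.54 and 3.79. In COX5B RNAi the intervals met on 15 arrays (1.499 for Hsp68 against 1.005) and were apart on the 10 arrays (1.66 for l(2)efl against 2.37). In ND-75 RNAi they overlapped in each of these fits, with 2.35 for Hsp68 against -0.46 on 15 arrays, 1.03 for Hsp26 against 0.17 on the 10 arrays and 1.04 for Hsp26 against 0.53 with array weights. These intervals bound the change in each gene's own signal on its log2 scale, and rises smaller than the upper ends lie within them. Hsc70-2 was brought in because of its rise, and it exceeded the array median on 10 arrays, none of them control. A gap between its interval and those of the 5 genes was therefore favoured in advance.

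The probe set 1629061_s_at, listed for Hsp22 and CG4456, stood apart from the 5 genes. It was taken up in detail after its values were seen. Its signals were 223, 183 and 908 on control arrays 1 to 3. They were 2422, 1872 and 7883 in ND-75 RNAi and 1962, 1459 and 10066 in UQCR-14 RNAi. They were 437, 2752 and 6511 in COX5B RNAi and 3109.8, 2467 and 2139 in ATPsynCf6 RNAi. Of the 12 RNAi arrays, 11 exceeded all 3 control arrays. The exception was COX5B RNAi 1 at 437, which exceeded controls 1 and 2 and lay below control 3. These 11 RNAi arrays lay above all control arrays at 0.338% of all probe sets. The 11 were picked by the values of this probe set itself, so that share does not measure how rare its pattern is.

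**Figure D3:**
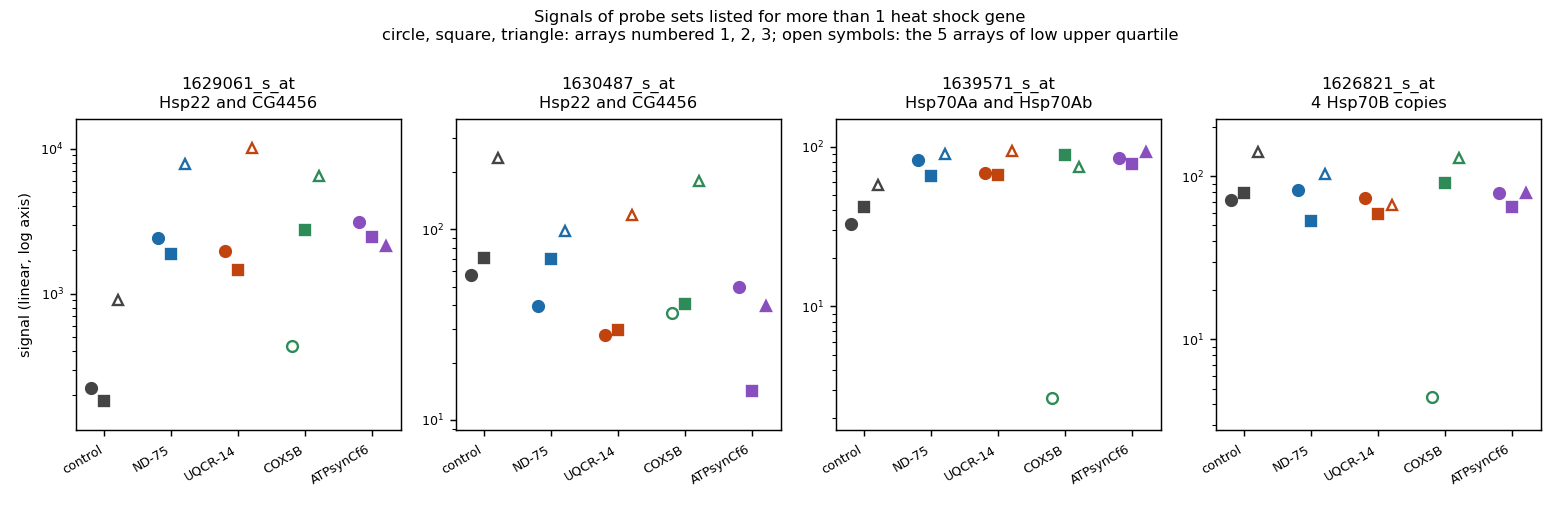
Signal on each array (log axis) of 4 probe sets listed for more than 1 heat shock gene. Circles, squares and triangles are the arrays numbered 1, 2 and 3, and open symbols are the 5 arrays of low upper quartile. On 1629061_s_at 11 of the 12 RNAi arrays lie above all control arrays, and the array numbered 3 is the highest in every group but ATPsynCf6 RNAi, whereas 1630487_s_at, listed for the same genes, shows no rise.

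On all 15 arrays 1629061_s_at changed by 3.23, 3.13, 2.52 and 2.86 (SE 0.95 each) in ND-75, UQCR-14, COX5B and ATPsynCf6 RNAi. The unadjusted p-values were 0.00383, 0.00479, 0.018 and 0.00861, and none passed after adjustment (1.00, 1.00, 0.541 and 1.00). The mean of the 4 groups changed by 2.93 (SE 0.75, adjusted p = 0.667). This was the highest change of all 10340 probe sets in that comparison, although its p-value ranked only 21st.

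All 4 comparisons passed the test for 1629061_s_at on the 10 arrays. The changes were 3.30 (SE 0.20, adjusted p = 1.8e-06) in ND-75 RNAi and 2.97 (SE 0.20, adjusted p = 9.52e-06) in UQCR-14 RNAi. They were 3.67 (SE 0.24, adjusted p = 1.73e-05) in COX5B RNAi, which rests on 1 array, and 3.55 (SE 0.18, adjusted p = 3.63e-07, 3.22% of all called) in ATPsynCf6 RNAi. The mean of the 4 groups rose by 3.37 (SE 0.16, adjusted p = 2.89e-07), the smallest p-value of all 10340 probe sets in a comparison that called 3.12% of them. Leaving out each of these arrays in turn, in the 9 fits that kept a COX5B RNAi array, left every one of the 4 calls in place, with adjusted p no higher than 0.000273. With array weights the 4 changes were 3.39, 2.86, 3.81 and 3.45, and all passed (adjusted p = 1.17e-06, 1.32e-05, 0.000724 and 1.16e-08, with 1.57%, 4.47%, 0.203% and 6.91% of all called).

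The signal of 1629061_s_at was also set against that of the control array of the same number. In ND-75 RNAi the signal was 10.9, 10.25 and 8.68 times that of control 1, 2 and 3. In UQCR-14 RNAi it was 8.81, 7.99 and 11.1 times, and in COX5B RNAi 1.96, 15.1 and 7.17 times. In ATPsynCf6 RNAi it was 14.0, 13.5 and 2.36 times, so the ratios were close together in ND-75 and UQCR-14 RNAi and spread in the other 2 groups. Same-numbered arrays of control and these 3 groups deviated together from their group means, so the replicate number was also fitted as a block on these 12 arrays. The standard error then fell from 0.95 to 0.56, and the changes of 3.23, 3.13 and 2.52 still missed the adjusted threshold (adjusted p = 0.156, 0.268 and 0.406, ranks 10, 7 and 15 by p-value). With the block and array weights together on all 15 arrays, all 4 comparisons passed (adjusted p = 1.74e-09, 1.33e-10, 7.99e-09 and 5.07e-10, with 3.43%, 15.7%, 5.93% and 2.76% of all called).

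The summed salivary gland markers and the signal of 1629061_s_at were both high on several arrays numbered 3. The sums were 12713 on control 3, 7170 on ND-75 RNAi 3, 17691 on UQCR-14 RNAi 3 and 10846 on COX5B RNAi 3. They were 10634 and 3529 on UQCR-14 RNAi 1 and 2 and 3849 on ND-75 RNAi 1. On control 1 and 2 they were 881 and 1850, and on the 3 ATPsynCf6 RNAi arrays 1767, 1045 and 998. The signals of 1629061_s_at were 223 and 183 on control 1 and 2 and 3109.8, 2467 and 2139 on the ATPsynCf6 RNAi arrays. On ND-75 RNAi 1, 2 and 3 the marker sums were 3849, 960 and 7170 and the signals 2422, 1872 and 7883. In UQCR-14 RNAi 4 of the 7 salivary gland markers rose on the 10 arrays, where 4.59% of all probe sets were called. Their median change was 2.27 beside -0.03 over all probe sets, and 0 of 7 rose in ND-75 and ATPsynCf6 RNAi. The part of these markers, or of the fat body markers, in the change of 1629061_s_at was not tested in any group.

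The second probe set listed for Hsp22 and CG4456, 1630487_s_at, did not show this rise. Its signals were 57.7, 70.7 and 237 in control and 49.8, 14.1 and 39.6 in ATPsynCf6 RNAi, where all 3 arrays lay below control. They were 39.6, 69.6 and 97.5 in ND-75 RNAi, 28.0, 29.4 and 119 in UQCR-14 RNAi and 36.4, 40.3 and 178 in COX5B RNAi, all overlapping control. The changes were -0.53, -0.86, -0.50 and -1.29 (SE 0.62 each), and none passed the test. On the 10 arrays they were -0.21, -0.84, -0.51 and -0.74 (SE 0.34 to 0.45), of the opposite sign to those of 1629061_s_at in all 4 groups. All 12 RNAi arrays lay below the control array of the same number, ND-75 RNAi 2 only barely (69.6 against 70.7). How many of all probe sets lay below control in these ways was not computed, so neither count is read as a result. With the replicate block and array weights together, 1630487_s_at fell in UQCR-14 RNAi (-0.93, adjusted p = 0.0105). Which transcript of the cluster each of them reads was not settled from the annotation, so neither Hsp22 nor Hsp67Bb is given a direction.

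Hsc70-2 and 1629061_s_at were also set side by side over the knockdowns. In ND-75 RNAi 1629061_s_at was at 1872 to 7883, above all controls, while Hsc70-2 was at 13.9 to 51.5 and overlapped control. Against the control array of the same number, Hsc70-2 was 4.71, 1.94 and 1.31 times as high in ND-75 RNAi. Its change there was 0.66 on 15 arrays (adjusted p = 1.00), 0.85 on the 10 arrays (adjusted p = 0.243) and 1.03 with array weights, where it passed (adjusted p = 0.0323). Among the 4 RNAi groups Hsc70-2 differed by the F test (adjusted p = 0.0243 on 15 arrays and 0.000117 on the 10 arrays). For 1629061_s_at the same test gave 0.94 on 15 arrays and 0.162 on the 10 arrays. A test of the difference between these patterns was not run.

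**Figure D4:**
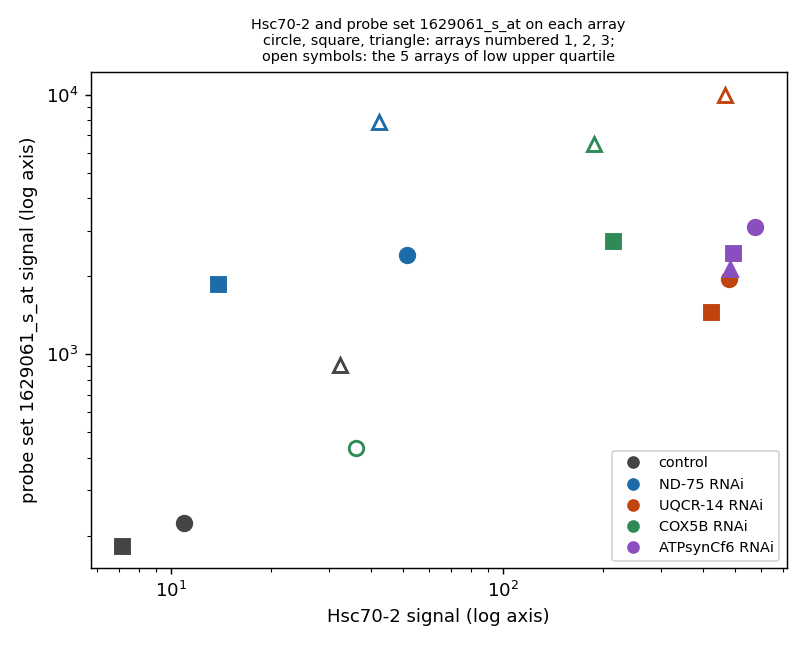
Signal of Hsc70-2 (horizontal, log axis) against that of 1629061_s_at (vertical, log axis), 1 point an array, coloured by group. Shapes give the array number and open symbols the 5 arrays of low upper quartile. The ND-75 RNAi arrays lie high on the vertical axis at Hsc70-2 signals of 13.9 to 51.5, and the UQCR-14 and ATPsynCf6 RNAi arrays lie high on both.

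Other heat-inducible genes came from a list of 10: Hsp22, the 6 Hsp70 copies of loci 87A and 87C, DnaJ-1, stv and the non-coding RNA Hsromega. DnaJ-1 and stv had probe sets of their own, and 0 of these 2 passed the test in any RNAi group on 15 arrays (0% to 0.0677% of all called). DnaJ-1 (1637059_s_at), the inducible Hsp40 that feeds substrates to Hsp70, gave 3409, 2805 and 1524 in control and 3400.0, 2779 and 2913 in ATPsynCf6 RNAi. It gave 3868, 4328 and 2258 in ND-75 RNAi, 3352, 3163 and 964 in UQCR-14 RNAi and 5548, 3071 and 1388 in COX5B RNAi, and each group overlapped control. Its changes on the 10 arrays were 0.40, 0.07, -0.01 and -0.03 with standard errors of 0.13 to 0.18. For stv (1634364_s_at), a BAG-domain co-chaperone of Hsp70, they were -0.11, -0.44, -0.08 and 0.31 (SE 0.19 to 0.25), and none passed.

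The inducible Hsp70 genes are near-identical copies, and their probe sets are listed for several copies at once. For Hsp70Aa and Hsp70Ab together, 1639571_s_at had signals of 33.0, 42.2 and 57.3 in control. They were 82.3, 65.5 and 90.5 in ND-75 RNAi, 68.9, 66.7 and 93.5 in UQCR-14 RNAi and 84.9, 77.4 and 92.8 in ATPsynCf6 RNAi, all above every control array. The same non-overlap was seen at 3.54%, 3.37% and 8.95% of all probe sets in these groups. In COX5B RNAi they were 2.68, 88.3 and 75.1, with the lowest on the array of the highest actin ratio. On 15 arrays the changes were 0.68, 0.63, -0.08 and 0.77 (SE 0.51 each), and none passed. The changes on the 10 arrays were 0.75, 0.65, 0.97 and 0.92, and ATPsynCf6 RNAi passed (SE 0.22, adjusted p = 0.0438, 3.22% of all called). That call held in 2 of the 9 fits that left out 1 further array (adjusted p = 0.0286 to 0.372). With array weights ND-75 RNAi (0.83, adjusted p = 0.0372) and ATPsynCf6 RNAi (0.94, adjusted p = 0.000567) passed, where 1.57% and 6.91% of all probe sets were called. All these signals, 2.68 to 93.5, are dim, and differences on the log2 scale with 16 added understate a fold change there.

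The 4 Hsp70 copies of locus 87C, read together by 1626821_s_at, had signals of 71.6, 79.4 and 141 in control and 79.6, 65.4 and 78.6 in ATPsynCf6 RNAi. They were 82.9, 53.2 and 103 in ND-75 RNAi, 73.7, 58.9 and 66.9 in UQCR-14 RNAi and 4.42, 91.4 and 129 in COX5B RNAi. Every group overlapped control, and the changes on the 10 arrays were -0.14, -0.16, 0.23 and -0.02 (SE 0.24 to 0.32). A second probe set listed for the same 4 copies, 1629827_s_at, exceeded the array median on 3 of the 15 arrays. Its signals were 14.3, 19.5 and 29.5 in control and 32.0, 33.4 and 69.8 in UQCR-14 RNAi, where all 3 arrays lay above control, as at 3.37% of all probe sets. They were 61.4, 27.0 and 66.8 in COX5B RNAi, 22.6, 18.9 and 19.0 in ND-75 RNAi and 18.1, 27.0 and 20.9 in ATPsynCf6 RNAi, and these groups overlapped control. Only the signals of 69.8, 61.4 and 66.8 exceeded the array median, all on arrays of low upper quartile. The signals of 32.0 and 33.4 in UQCR-14 RNAi lay under their array medians of 38.7 and 40.9. The filter thus kept this dim probe set through groups where it was high, which favoured a position above control in advance. The changes of 1629827_s_at were -0.02, 0.69, 0.83 and 0.05 on 15 arrays (SE 0.34 each) and 0.16, 0.57, 0.39 and 0.20 on the 10 arrays, and none passed the test.

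Of 15 co-chaperones of Hsp90 and Hsp70, 12 could be tested, and 0 of 12 passed in any RNAi group on 15 arrays or with array weights. The same held on the 10 arrays. Of all probe sets, 0% to 0.0677% were called on 15 arrays and 0.203% to 6.91% with array weights. On the 10 arrays it was 1.69% to 4.59%, COX5B RNAi aside. Most sets of 12 probe sets would give few or no calls at such shares, so this count adds little. Their median changes on the 10 arrays were 0.15, 0.08, -0.04 and 0.08 in ND-75, UQCR-14, COX5B and ATPsynCf6 RNAi, beside -0.03, -0.03, 0.02 and -0.01 over all probe sets. The smallest p-values on 15 arrays were those of Cdc37, the co-chaperone that brings kinases to Hsp90 (-1.71, SE 0.82), unc-45, the myosin chaperone (-0.89, SE 0.45), Fkbp59, an immunophilin (-0.82, SE 0.48), and STUB1, a ubiquitin ligase of misfolded clients (1.04, SE 0.63), each in COX5B RNAi with adjusted p = 0.541. On the 10 arrays, without COX5B RNAi 1 and 3, Cdc37 changed by -0.26 (SE 0.20), Fkbp59 by -0.30 (SE 0.25), unc-45 by 0.22 (SE 0.25) and STUB1 by 0.52 (SE 0.16, adjusted p = 0.148) in that group, so the sign for unc-45 turned.

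Among the 6 Hsc70 cognates, the constitutive members of the Hsp70 family, 5 could be tested on 15 arrays. Hsc70-2 was called in UQCR-14 and ATPsynCf6 RNAi (0.0484% and 0.0193% of all called). Hsc70-3, Hsc70-4, Hsc70-5 and Hsc70Cb were called in none. Hsc70-4, the main cytosolic Hsp70 of unstressed cells, changed by 0.31, 0.40, -0.57 and 0.14 (SE 0.57 each). Hsc70-5, the Hsp70 of the mitochondrial matrix, changed by 0.64 (SE 0.43) in ATPsynCf6 RNAi on 15 arrays, by 0.47 (SE 0.12, adjusted p = 0.0582) on the 10 arrays, and by 0.49 (SE 0.12, adjusted p = 0.0153) with array weights.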

How the data were processed

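The values were intensities as deposited, which the authors computed with MAS5, per the submitters' processing notes. Transcriptome Analysis Console and Affymetrix Expression Console appear there too, with versions not given in the sources used here. Of 18952 probe sets, 183 array controls were set aside. The log2 of each intensity plus 16 was taken, and 10340 probe sets entered the tests, namely those above the array's own median on 3 or more of the 15 arrays. In R 4.3.3, limma 3.58.1 fitted 5 group means over 15 arrays (lmFit, then eBayes with an intensity trend). Tests were two-sided, with Benjamini-Hochberg adjustment over kept probe sets and a threshold of 0.05. With 3 arrays against 3 an exact permutation test could not reach that threshold, so none was run. The p-values measure the spread between these RNA samples only. The number of arrays limits the precision.

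Gene names came from the platform annotation, updated through RefSeq. Of 18769 probe sets, 13648 had 1 symbol, 401 had several and 4720 were not listed. Where a gene had several probe sets, the brightest stood for it. All 10 genes, Hsc70-2, and up to 4 genes of each other list (those called, then those of smallest p-value) were named. The genes and lists were chosen with earlier results of these data known. The 5 arrays left out in the 10-array fit had also been seen to stand apart. The fit was tested on simulated data.

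Deviations from the group means correlated by 0.167 to 0.852 between same-numbered arrays of all groups but ATPsynCf6 RNAi, and by -0.362 to 0.149 with ATPsynCf6 RNAi. The number was therefore fitted as a block as a check, although the labels do not say what a number shares, and the main fit had no such term. The array numbered 3 is of low upper quartile in exactly these other 4 groups. Such an array moves the deviations of the other arrays of its group the opposite way. The correlations thus cannot tell a pairing by number from these low arrays.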

Additional observations from a re-analysis of the deposited data

Results flagged for a closer look

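The 4 knockdowns differed in Hsc70-2. On 15 arrays it was lower in ND-75 RNAi than in UQCR-14 RNAi by a log2 difference of -3.27 (adjusted p = 0.0217) and lower than in ATPsynCf6 RNAi by -3.44 (adjusted p = 0.0214, limma). Each of these calls held in 9 of the 15 fits that left out 1 array and was lost without any 1 array of the groups compared (adjusted p up to 0.246 and 0.187). Both were also lost with 1 added in place of 16 before the logarithm (adjusted p = 0.0996 and 0.220). None of the 5 heat shock genes with a probe set of their own differed between the same groups on 15 arrays. On the 10 arrays Hsp26 and Hsp68 were higher in ND-75 than in ATPsynCf6 RNAi, by 0.63 and 0.70, calls that held in 6 and 1 of the 9 fits that left out 1 further array.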

How the results depend on the processing

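The count of 0 of 5 heat shock genes called against control on 15 arrays stayed 0 in each comparison with pseudocounts of 1 or 64, without the filter, with quantile normalization or median centring, with array weights, with the replicate number as a block (0 in each comparison), and in all 15 fits that left out 1 array. On the 10 arrays it was 1 for ND-75 RNAi (Hsp26, 1.69% of all called), 1 in the F test (Hsp26, 4.4% of all called) and 2 over the pairs. These 2 were Hsp26 and Hsp68 in ND-75 against ATPsynCf6 RNAi (4.52% of all called). With array weights it was 1 over the pairs (Hsp26 in that pair, 3.05% of all called). The block and array weights together were a choice made after seeing the data. There it was 1 each for ND-75 RNAi (Hsp26), UQCR-14 RNAi (Hsp27) and COX5B RNAi (Hsp68, 0.82 in place of -0.28). All probe sets called in these 3 were 3.43%, 15.7% and 5.93%, so 1 of 5 adds little. It was also 1 in the F test and 1 over the pairs, where the share of all probe sets is not given here. Quantile normalization with array weights moved most values, with 1 call for ND-75 RNAi, 1 for UQCR-14 RNAi, 3 for COX5B RNAi, 1 for the mean of the knockdowns, 2 in the F test and 7 over the pairs. It also called 426, 2165, 2433 and 765 of 10340 probe sets in ND-75, UQCR-14, COX5B and ATPsynCf6 RNAi, where the fit without either step called 7, 5, 0 and 2, array weights alone 162, 462, 21 and 715, and the 10 arrays 175, 475, 128 and 333. Signs turned there in COX5B RNAi against control for Hsp26 (0.72), Hsp68 (0.52) and 1639571_s_at (0.65), against ATPsynCf6 RNAi for Hsp26 (0.52) and Hsp68 (0.73), for Hsp26 between UQCR-14 and COX5B RNAi (-0.42), and for Hsp68 between UQCR-14 and ATPsynCf6 RNAi (0.58). The cause was not tested. The 4 changes of 1629061_s_at against control were 2.36 to 3.96 over the other settings, and 1.67 to 3.93 with 1 array left out, always above 0, and passed the test only where the low arrays were left out or weights were used. The changes of Hsc70-2 against control were 2.70 to 4.95 in UQCR-14 RNAi and 2.86 to 5.13 in ATPsynCf6 RNAi over the settings, and 3.71 to 4.24 and 3.88 to 4.41 with 1 array left out. Dim signals, 3 arrays a group and 5 arrays of low quality limit what could be detected.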

Other observations

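Chaperones of the other compartments gave few calls. Of the mitochondrial chaperones 5 could be tested and 0 passed on 15 arrays, where 0% to 0.0677% of all probe sets were called in the 4 groups. Roe1, the nucleotide exchange factor of mitochondrial Hsp70, changed by -0.91 (SE 0.39, adjusted p = 1.00) in ND-75 RNAi on 15 arrays. It fell there by 0.90 on the 10 arrays (adjusted p = 0.0215, 1.69% of all called) and by 0.82 with array weights (adjusted p = 0.00887, 1.57% of all called). In UQCR-14 RNAi its signals were 390, 316 and 218, below all control arrays (490, 574 and 518). How many of all probe sets lay below control in this way was not computed, so this is not read as a result. With array weights 1 of the 5 mitochondrial chaperones fell in that group, where 4.47% of all probe sets were called. Trap1, the mitochondrial Hsp90, changed by 0.12, -0.05, 0.28 and 0.18 in ND-75, UQCR-14, COX5B and ATPsynCf6 RNAi on the 10 arrays, with none past the test. Of 5 chaperones of the endoplasmic reticulum, 0 passed on 15 arrays, with array weights or on the 10 arrays. Of all probe sets, 0.203% to 6.91% were called with array weights. On the 10 arrays it was 1.69% to 4.59%, COX5B RNAi aside, so 0 of 5 adds little. Among 4 testable genes of other stress pathways, Gadd45, a stress-induced gene linked to DNA damage and JNK signalling, changed by 1.29 (SE 0.52, adjusted p = 1.00) in ATPsynCf6 RNAi on 15 arrays. It rose by 1.05 with array weights (adjusted p = 0.0284, 6.91% of all called).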
